A study of Mus musculus with 20 samples.

Results

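The transcripts of 9 genes of the BCL2 family were followed in regulatory T cells (Tregs) and CD8+ T cells given IL-2 or a weakened form of it. They were the anti-apoptotic genes Bcl2, Bcl2l1 and Mcl1, the effectors Bax and Bak1, and the BH3-only genes Bcl2l11, Bbc3, Pmaip1 and Bid, which are 9 of the 23992 gene symbols in the files. They were taken by symbol, and where a symbol had several transcripts, the transcript with the most reads over the 20 libraries stood for the gene. BCL2 family proteins decide whether the outer membrane of the mitochondrion stays closed. Anti-apoptotic members hold the effectors in check, effectors form the pore through which cytochrome c leaves, and BH3-only proteins carry stress or starvation signals by binding the anti-apoptotic members or the effectors. IL-2 is the main survival cytokine of Tregs, and loss of BCL2, rise of BIM, the product of Bcl2l11, or loss of MCL-1 is known to shorten the life of T cells that lack it.

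Tregs from B6-Foxp3EGFP mice, isolated as CD4+ T cells and sorted for the GFP that reports Foxp3, and CD8+ T cells purified from C57BL/6J mice, came from spleen and lymph nodes. The strain field of all samples, by contrast, reads C57BL/6N. Cells were left without cytokine or received 200 nM IL-2 or 200 nM IL-2-REH, an IL-2 variant that binds the common gamma chain less well and acts as a partial agonist, for 1.5 hr or 4 hr. Each of the 5 Treg groups had 3 libraries, numbered 1 to 3, and each of the 5 CD8+ groups had 1 library, so no CD8+ difference could be tested. The unstimulated cells were labelled as time 0, and no group was kept without cytokine for 1.5 or 4 hr, so effects of cytokine and of time in culture cannot be told apart in comparisons with unstimulated cells. Nothing states that replicates came from separate mice or cultures, so p-values measure the spread between these libraries, which may be technical.

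Treg libraries held 20201392 to 63903764 reads on genes and CD8+ libraries 38201667 to 45189835, and each member had at least 231 reads in each library. The labels of the cell types held. Foxp3, the factor that defines Tregs, lay between 65.2 and 252 RPKM (reads per kilobase of exon, scaled to mapped reads) in Tregs and at most at 0.999 RPKM in CD8+ libraries, and Cd8a, which encodes a chain of the CD8 co-receptor, lay between 103 and 256 RPKM in CD8+ libraries and at most at 1.84 RPKM in Tregs. Unstimulated Treg replicate 1 stood apart. Ramp3, a co-receptor chain gene, was at 219 RPKM there, within its range of 71.5 to 239 RPKM in the Treg libraries given cytokine for 1.5 hr, and at 2.91 and 2.25 RPKM in the other unstimulated Treg libraries. Cish, a direct target of STAT5, did not set that library apart, at 54.7 RPKM against 65.5 and 54.0 RPKM in unstimulated replicates 2 and 3. The same library also stood apart in several members, so comparisons with unstimulated cells are given with and without it. Summed erythroid markers (3 of 3 genes measured) reached 76.1 to 131 RPKM in replicate 3 of the 5 Treg groups, with a low of 2.90 to 4.16 RPKM per group. Summed macrophage markers (4 of 5 measured) were 12.7 to 54.1 RPKM in unstimulated Tregs and 7.31 to 25.0 RPKM at 4 hr of IL-2. Summed B cell markers (4 of 4) stayed between 1.76 and 16.8 RPKM in Tregs. Summed T cell markers (3 of 3) were 464 to 699 RPKM in unstimulated Tregs and 245 to 351 RPKM at 4 hr of IL-2. The part of these cells in the results was not tested. In RNA from whole populations, fewer cells of a type and less RNA per cell cannot be told apart.

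The promoters of Bcl2, Mcl1, Bcl2l11 and Bbc3 are shown, as given by RefSeq for GRCm38.p6, because Bcl2 and Mcl1 were lower and Bcl2l11 and Bbc3 were higher with IL-2-REH than with IL-2 in each pair of libraries of both cell types. Each window holds 250 bases before the start and 50 after it. RefSeq windows of 8 of the 9 members, all but Pmaip1, were used, 13 windows in all. No window of Pmaip1 was searched. Both strands were searched for GTAAACA, a core that FOXO factors bind, TTCNNNGAA, a core that STAT5 binds, and CACGTG, an E-box. Capitals mark GTAAACA, read as TGTTTAC on the opposite strand.
Bcl2 promoter, chr1:106714241-106714540, - strand: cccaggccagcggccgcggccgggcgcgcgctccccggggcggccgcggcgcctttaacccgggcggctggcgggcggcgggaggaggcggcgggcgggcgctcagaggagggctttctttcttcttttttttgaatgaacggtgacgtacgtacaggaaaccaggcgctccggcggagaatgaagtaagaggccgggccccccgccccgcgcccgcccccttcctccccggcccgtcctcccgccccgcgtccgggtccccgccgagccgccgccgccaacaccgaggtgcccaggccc
Mcl1 promoter, chr3:95658471-95658770, + strand: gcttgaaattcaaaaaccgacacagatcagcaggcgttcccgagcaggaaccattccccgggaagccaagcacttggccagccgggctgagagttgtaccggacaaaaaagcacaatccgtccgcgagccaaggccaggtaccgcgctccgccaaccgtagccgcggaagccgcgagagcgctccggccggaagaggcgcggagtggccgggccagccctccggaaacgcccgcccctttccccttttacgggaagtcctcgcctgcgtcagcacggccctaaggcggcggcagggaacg
Bcl2l11 promoter, chr2:128125788-128126087, + strand: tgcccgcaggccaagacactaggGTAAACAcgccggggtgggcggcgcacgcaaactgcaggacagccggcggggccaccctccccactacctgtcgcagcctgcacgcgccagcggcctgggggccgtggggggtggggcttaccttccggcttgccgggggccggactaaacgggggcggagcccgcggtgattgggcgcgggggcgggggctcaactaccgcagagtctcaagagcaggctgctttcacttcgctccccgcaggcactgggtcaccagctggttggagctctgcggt
Bbc3 promoter, chr7:16310011-16310310, + strand: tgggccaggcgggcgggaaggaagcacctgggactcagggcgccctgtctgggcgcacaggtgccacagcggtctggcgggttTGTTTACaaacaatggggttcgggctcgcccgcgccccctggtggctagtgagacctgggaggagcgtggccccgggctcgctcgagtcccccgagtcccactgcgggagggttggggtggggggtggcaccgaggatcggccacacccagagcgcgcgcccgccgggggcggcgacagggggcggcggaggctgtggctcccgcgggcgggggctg
The Bcl2l11 window belongs to a start at the first base of the gene's span, and its GTAAACA begins at position -227 from the start. The Bbc3 window, which belongs to a start within the span of the gene, held GTAAACA on the opposite strand from position -167. GTAAACA occurred in 3.65% of the 32851 promoter windows of the mouse and in no other window of the members. Bcl2l11 and Bbc3 have further windows, and only the window holding GTAAACA is shown for each. The Bcl2l11 window at chr2:128127325-128127624 and the Bbc3 window at chr7:16309333-16309632 held none of the 3 motifs. TTCNNNGAA occurred in 8.30% of all windows and in none of the 13 windows of the members, and the windows of Bcl2 and Mcl1 held none of the 3 motifs. The Mcl1 window belongs to a start within the span of the gene. Which start the transcripts counted here have was not looked up. CACGTG occurred in 7.15% of all windows, in the Bax window at positions -9 and 36 and in another Bbc3 window at position -64. A match or its absence describes these letters only.

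In GRCm38 the anti-apoptotic genes lie at chr1:106538176-106714290 (Bcl2, - strand), chr2:152758732-152833803 (Bcl2l1, - strand) and chr3:95656944-95663179 (Mcl1, + strand). The effectors lie at chr7:45461695-45466903 (Bax, - strand) and chr17:27019812-27028627 (Bak1, - strand). Of the BH3-only genes, Bcl2l11 lies at chr2:128126038-128162547 and Bbc3 at chr7:16308398-16318334, both on the + strand, and Bid at chr6:120893119-120917062 on the - strand. The position of Pmaip1 is not given. The positions above are spans of genes, and values are reads on the exons of the transcripts counted.

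Mcl1, which encodes a short-lived anti-apoptotic protein, was the most abundant of the 9 transcripts in each library. It took 37.1% to 60.8% of the summed RPKM of the members in Tregs and 37.4% to 50.1% in CD8+ T cells. In the 15 Treg libraries, its RPKM ran from 97.2 over a median of 166.3 to 261. Bax followed, with a Treg median of 43.3 RPKM (21.8 to 82.4), then Bcl2l1, which encodes BCL-XL, at 28.6 (13.8 to 49.8) and Bcl2 at 27.3 (11.1 to 46.0). Pmaip1, which encodes NOXA, stood at 22.5 RPKM (10.9 to 48.2), Bcl2l11 at 19.9 (9.27 to 40.3) and Bak1 at 19.3 (14.9 to 29.0). Bbc3, which encodes PUMA, at 7.55 RPKM (4.75 to 10.9), and Bid, whose product links death receptors to mitochondria, at 7.54 RPKM (3.39 to 11.04), were the least abundant. The ranges of Bax, Bcl2l1, Bcl2, Pmaip1, Bcl2l11 and Bak1 overlapped, so their order is that of the medians alone, and the ranges of Bbc3 and Bid nearly coincided. Bak1 varied least over the Treg libraries, by 1.94-fold between lowest and highest, and Pmaip1 most, by 4.43-fold. Bcl2 had 2 transcripts and Bcl2l11 had 4 in the files, and these share reads, so isoforms were not compared. Other annotated genes overlap Bcl2, Bcl2l1, Bax, Bak1 and Bid, and it is not stated whether counting used the strand, so their reads may hold some from those genes.

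**Figure D1:**
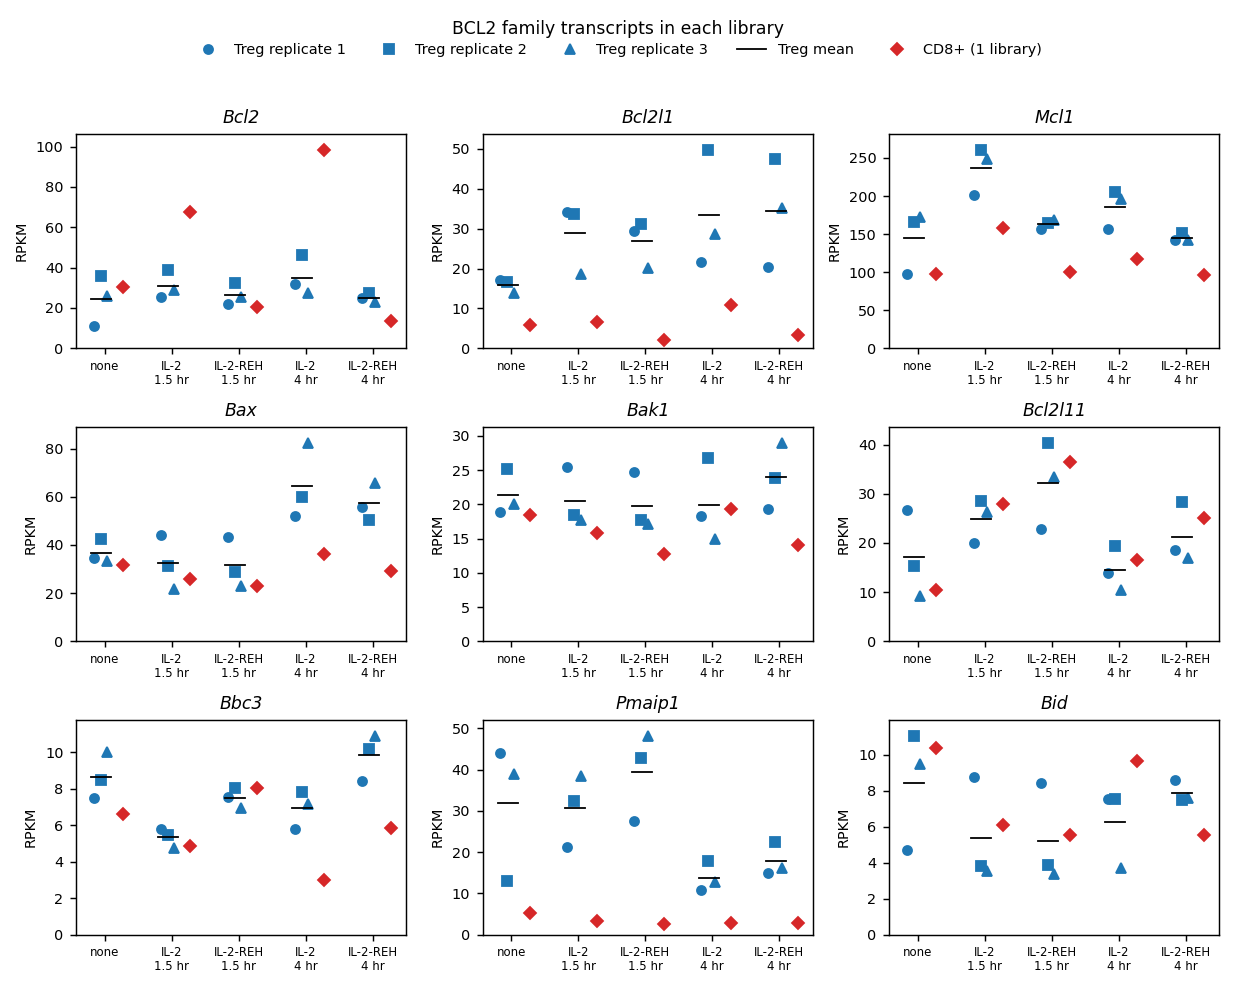
RPKM of the 9 members (y axes, starting at 0) in each library by cytokine and time (x axes), with blue symbols for Treg replicates 1 to 3, black lines for Treg means and red diamonds for the CD8+ libraries. Bcl2 reached 98.5 RPKM in the CD8+ library with IL-2 at 4 hr against 13.4 RPKM with IL-2-REH.

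What 1.5 hr of IL-2 did to these transcripts in Tregs was asked first. Bcl2, Bcl2l1 and Mcl1 were higher and Bbc3 was lower in each of the 3 same-numbered pairs of libraries. In TMM-scaled reads, 4 of 9 members thus went in the same direction in all pairs, against 35.3% of genes, and 3 (Bcl2l1, Mcl1 and Bbc3) had groups without overlap, against 14.1% of genes. Mcl1 was at 97.2, 166.3 and 172.4 RPKM in unstimulated replicates 1, 2 and 3 and at 201, 261 and 248 RPKM with IL-2. The groups did not overlap, and the log2 fold change was 0.88 ± 0.23 (SE), with an adjusted p of 0.112. Once the fit took the replicate number as a block, which the pairing of the libraries called for, Mcl1 rose by 0.88 ± 0.18 (log2, SE) with an adjusted p of 0.021. Bcl2l1 was at 17.2, 16.7 and 13.8 RPKM without cytokine and at 34.1, 33.7 and 18.6 RPKM with IL-2, again without overlap. Its log2 fold change was 0.96 ± 0.30, with an adjusted p of 0.187 (0.093 with the block). Bbc3, a target of p53 and of FOXO factors, was at 7.52, 8.47 and 10.03 RPKM and then at 5.81, 5.46 and 4.75 RPKM. All 3 IL-2 libraries lay under the unstimulated ones, with a log2 fold change of -0.57 ± 0.19 and an adjusted p of 0.207.

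Without the block, edgeR called 0 of the 9 members after 1.5 hr of IL-2, against 0.853% of 15009 genes tested, and 3 members had an unadjusted p under 0.05. With the block it called 1, Mcl1, against 1.83% of genes. DESeq2 called 2, Mcl1 and Bbc3, against 3.68% of genes, and limma called none. The median log2 fold change of the members was 0.08, beside -0.06 over all genes tested.

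Unstimulated replicate 1 weighed on Bcl2l11. Bcl2l11 was at 26.7, 15.3 and 9.27 RPKM in unstimulated replicates 1, 2 and 3 and at 19.9, 28.4 and 26.2 RPKM with IL-2 at 1.5 hr. Pair 1 went down and pairs 2 and 3 went up, and the log2 fold change of 0.67 ± 0.39 had an adjusted p of 0.470. Without unstimulated replicate 1, Bcl2l11 rose by 1.29 ± 0.34 with an adjusted p of 0.027, and Bcl2l1 rose by 1.12 ± 0.35 with an adjusted p of 0.0498. Those were the 2 members called without that library, when 12.9% of 15494 genes were called. Mcl1 then had a log2 fold change of 0.72 and an adjusted p of 0.061. With the block in addition, 4 members were called (Bcl2l1, Mcl1, Bcl2l11 and Bid), against 26.9% of genes. Bid was at 4.72, 11.04 and 9.47 RPKM without cytokine and at 8.75, 3.83 and 3.55 RPKM with IL-2 at 1.5 hr, higher in pair 1 and lower in pairs 2 and 3, and under that setting it fell by 1.05 on the log2 scale (adjusted p = 0.0065).

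After 4 hr of IL-2, Bcl2, Bcl2l1, Mcl1 and Bax were higher and Bbc3 was lower in each pair, which is 5 of 9 members against 34.9% of genes. The Bbc3 pairs stood at -0.42, -0.007 and -0.32 (log2, TMM-scaled reads), so pair 2 hardly differed. The groups did not overlap in TMM-scaled reads for 3 of them (Bcl2, Bcl2l1 and Bax), against 18.3% of genes. Mcl1 stood at 157, 206 and 196 RPKM, with a log2 fold change of 0.45 ± 0.23 and an adjusted p of 0.330. Bcl2l1 stood at 21.7, 49.8 and 28.6 RPKM with IL-2 at 4 hr, above the 13.8 to 17.2 RPKM of all unstimulated libraries. Its log2 fold change was 1.10 ± 0.30 with an adjusted p of 0.080, and with the block it rose by 1.04 ± 0.27 with an adjusted p of 0.035. With unstimulated replicate 1 left out, it rose by 1.25 ± 0.35 with an adjusted p of 0.042. Bax, which encodes a pore-forming effector, was at 34.5, 42.6 and 33.4 RPKM without cytokine and at 51.9, 59.7 and 82.4 RPKM with IL-2. The groups did not overlap. The log2 fold change of Bax was 0.91 ± 0.25, with an adjusted p of 0.074, and with the block it rose by 0.90 ± 0.25 with an adjusted p of 0.045. Pmaip1 was at 44.0, 13.0 and 38.8 RPKM and then at 10.9, 17.7 and 12.7 RPKM, lower in pairs 1 and 3 and higher in pair 2. Its log2 fold change of -1.22 ± 0.45 had an adjusted p of 0.180. Bcl2 was at 11.1, 35.8 and 25.8 RPKM without cytokine and at 31.7, 46.0 and 27.4 RPKM after 4 hr of IL-2, higher in each pair but with overlap of the groups in RPKM. Its log2 fold change was 0.63 ± 0.31 (adjusted p = 0.313), and 0.33 without unstimulated replicate 1.

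At 4 hr of IL-2, edgeR called 0 members against 2.27% of genes, and 3 had an unadjusted p under 0.05. The block brought 2 calls, Bcl2l1 and Bax, against 6.92% of genes. DESeq2 called the same 2, against 6.64%, and limma called none. Without unstimulated replicate 1, 1 member was called, Bcl2l1, against 8.87% of genes, and with the block as well 3 members (Bcl2l1, Bax and Bid) against 21% of genes. The median log2 fold change of the members was -0.04, beside -0.00 over all genes.

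IL-2-REH was compared with unstimulated Tregs in the same way. At 1.5 hr, Bcl2l11 was the member with the highest log2 fold change, and at 4 hr it was Bcl2l1. In TMM-scaled reads, 3 members went in the same direction in all pairs at 1.5 hr (Bcl2, Bcl2l1 and Mcl1, all higher), against 33.4% of genes, and 3 at 4 hr (Bcl2l1, Bax and Bbc3, all higher), against 34.4%. The groups did not overlap for 1 member (Bcl2l1) at 1.5 hr, against 11% of genes, and for 2 (Bcl2l1 and Bax) at 4 hr, against 16.2%. On the log2(RPKM + 1) scale, by contrast, pairs 2 and 3 were lower at 1.5 hr, at -0.13 and -0.04 for Bcl2 and -0.02 and -0.04 for Mcl1. The direction of Bcl2 and Mcl1 in those pairs thus depended on the scaling. Bcl2l11 reached 22.9, 40.3 and 33.5 RPKM after 1.5 hr of IL-2-REH, above unstimulated replicates 2 and 3 and under replicate 1 in its own pair. Its log2 fold change was 1.04 ± 0.39, with an adjusted p of 0.398, and without unstimulated replicate 1 Bcl2l11 rose by 1.66 ± 0.35 with an adjusted p of 0.0091. Bcl2l1 was at 29.3, 31.2 and 20.1 RPKM at 1.5 hr and at 20.5, 47.4 and 35.1 RPKM at 4 hr, in all 6 libraries above the unstimulated range. The log2 fold change of Bcl2l1 was 0.87 ± 0.30 at 1.5 hr (adjusted p = 0.393) and 1.09 ± 0.30 at 4 hr (adjusted p = 0.149, with the block 0.054). When unstimulated replicate 1 was left out, Bcl2l1 rose at 4 hr by 1.24 ± 0.35 with an adjusted p of 0.0496. Mcl1, at 156.9, 164.2 and 167.9 RPKM after 1.5 hr and 142, 151 and 142 RPKM after 4 hr of IL-2-REH, had log2 fold changes of 0.33 ± 0.23 and 0.02 ± 0.23, with adjusted p of 0.589 and 0.982. Bax stood at 55.8, 50.5 and 65.9 RPKM after 4 hr of IL-2-REH, above all unstimulated libraries, with a log2 fold change of 0.66 ± 0.25 and an adjusted p of 0.250.

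For IL-2-REH at 1.5 hr, edgeR called 0 members against 0.0933% of genes, with 2 members at an unadjusted p under 0.05. It called 0 with the block, against 0.213%, and DESeq2 called 0 against 0.753%. At 4 hr, edgeR called 0 members against 0.313% of genes, with 2 at an unadjusted p under 0.05, and 0 with the block against 3.03%. DESeq2 called 1, Bcl2l1, against 3.76% of genes. limma called none at either time. Without unstimulated replicate 1, 1 member was called at each time, Bcl2l11 at 1.5 hr against 12.1% of genes and Bcl2l1 at 4 hr against 6.93%. With the block as well, 3 members (Bcl2l1, Bcl2l11 and Bid) were called at 1.5 hr against 25.4% of genes and 2 (Bcl2l1 and Bcl2l11) at 4 hr against 16.7%. The median log2 fold change of the members was 0.33 at 1.5 hr and 0.18 at 4 hr, beside -0.05 and 0.01 over all genes.

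**Figure D2:**
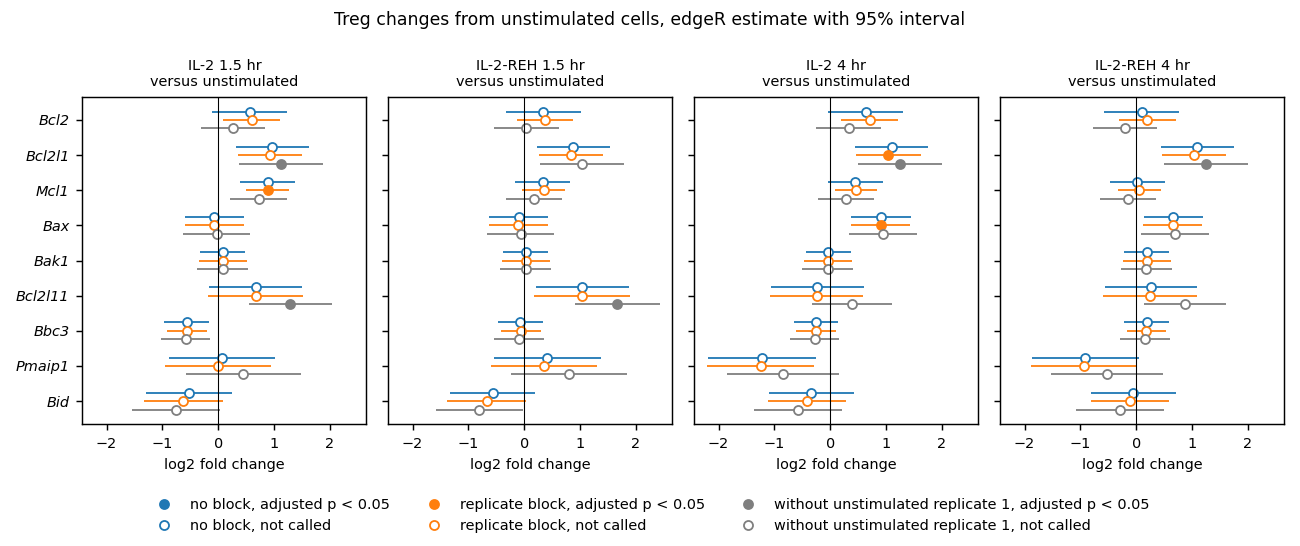
Log2 fold changes of the 9 members from unstimulated Tregs (x axes) with 95% intervals, for IL-2 and IL-2-REH at 1.5 and 4 hr, in blue without the block, in orange with the replicate block and in grey without unstimulated replicate 1. Filled points passed an adjusted p of 0.05, which no blue point did, and the Bcl2l11 estimate moved up in each panel once unstimulated replicate 1 was left out.

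In TMM-scaled reads, Mcl1, Bcl2l11 and Pmaip1 were lower at 4 hr than at 1.5 hr in each of 3 pairs with either cytokine. Bax and Bbc3 were higher in each, and Bid was higher with IL-2-REH, but edgeR called none of them. These are 5 of 9 members with IL-2, against 46.2% of genes, and 6 of 9 with IL-2-REH, against 51.5%. In TMM-scaled reads the groups did not overlap for 4 members with IL-2 (Bax, Bcl2l11, Bbc3 and Pmaip1), against 22.9% of genes, and for 3 with IL-2-REH (Mcl1, Bax and Pmaip1), against 23%. In RPKM, Bbc3 of IL-2 pair 1 was at 5.813 and then at 5.806, so it did not rise there and its groups overlapped. Pmaip1 was at 21.2, 32.5 and 38.5 RPKM with IL-2 at 1.5 hr and at 10.9, 17.7 and 12.7 RPKM at 4 hr, and at 27.5, 42.7 and 48.2 RPKM and then 14.9, 22.5 and 16.2 RPKM with IL-2-REH. The groups did not overlap with either cytokine. The log2 fold changes of Pmaip1 from 1.5 to 4 hr were -1.28 ± 0.45 for IL-2 (adjusted p = 0.221) and -1.33 ± 0.45 for IL-2-REH (adjusted p = 0.256). Bax was at 44.3, 31.3 and 21.8 RPKM with IL-2 at 1.5 hr and, as given above, at 51.9 to 82.4 RPKM at 4 hr, a log2 fold change of 0.98 ± 0.25 with an adjusted p of 0.184. For IL-2-REH, Bax went from 43.3, 28.8 and 22.9 RPKM to 50.5 to 65.9 RPKM, a log2 fold change of 0.76 ± 0.25 with an adjusted p of 0.252. Bcl2l11 went the other way, by -0.90 ± 0.39 with IL-2 (adjusted p = 0.272) and -0.78 ± 0.39 with IL-2-REH (adjusted p = 0.368).

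For IL-2 at 4 hr against 1.5 hr, edgeR called 0 members and 0% of all genes, with 3 members at an unadjusted p under 0.05. With the block it called 0 members against 0.386% of genes, and DESeq2 called 1, Bax, against 2.55%. For IL-2-REH, edgeR called 0 members and 0% of genes, with 2 at an unadjusted p under 0.05, 0 with the block against 0.04%, and DESeq2 called 0 against 1.67%. limma called 0 members in both.

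How IL-2-REH differed from IL-2 at the same dose and time was the comparison of the 2 cytokines, and it does not use the unstimulated libraries. In Tregs, Bcl2 and Mcl1 were lower and Bcl2l11, Bbc3 and Pmaip1 were higher with IL-2-REH in all 3 pairs at both times, but no difference passed the test. Bbc3 was at 5.81, 5.46 and 4.75 RPKM with IL-2 and at 7.55, 8.07 and 6.95 RPKM with IL-2-REH at 1.5 hr. At 4 hr Bbc3 was at 5.81, 7.85 and 7.15 RPKM with IL-2 and at 8.42, 10.2 and 10.9 RPKM with IL-2-REH. The groups did not overlap at either time. The log2 difference of Bbc3 was 0.50 at 1.5 hr (95% interval 0.10 to 0.90) and 0.44 at 4 hr (0.04 to 0.84), with an adjusted p of 1 at both times. Mcl1 differed by -0.55 (95% interval -1.05 to -0.06) at 1.5 hr and by -0.43 (-0.92 to 0.06) at 4 hr, with an adjusted p of 1 at both times. The 3 IL-2-REH libraries lay under the 3 IL-2 libraries in Mcl1 RPKM at each time. Bcl2 was at 25.6, 38.6 and 28.8 RPKM with IL-2 and at 21.9, 32.6 and 25.2 RPKM with IL-2-REH at 1.5 hr. At 4 hr it was at 31.7, 46.0 and 27.4 RPKM with IL-2 and at 24.9, 27.3 and 23.1 RPKM with IL-2-REH, a narrow gap without overlap. Its log2 difference was -0.23 (-0.90 to 0.44) and then -0.53 (-1.20 to 0.14). All intervals given between the cytokines come from the edgeR fit without the block, which leaves the pairing out. With the block, Mcl1, Bcl2 and Bbc3 had an unadjusted p under 0.05 at 4 hr, and none was called.

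Bcl2l11, the transcript for BIM, was at 13.9, 19.3 and 10.3 RPKM with IL-2 and at 18.6, 28.3 and 16.9 RPKM with IL-2-REH at 4 hr. The libraries of the 2 groups overlapped, although each pair went up, and the log2 difference was 0.49 (95% interval -0.34 to 1.32). At 1.5 hr the Bcl2l11 difference was 0.37 (-0.46 to 1.20). Pmaip1 differed by 0.35 (-0.60 to 1.30) at 1.5 hr and by 0.31 (-0.64 to 1.27) at 4 hr. Bcl2l1, by contrast, differed by -0.09 (-0.74 to 0.56) and -0.01 (-0.66 to 0.63), and its pairs did not share a direction. Bax differed by -0.03 (-0.56 to 0.49) and -0.25 (-0.78 to 0.28), Bak1 by -0.05 (-0.46 to 0.35) and 0.23 (-0.18 to 0.63), and Bid by -0.04 (-0.81 to 0.72) and 0.28 (-0.48 to 1.05). These intervals reach to both sides of 0, so they leave room for a difference in either direction.

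At 1.5 hr, 6 of the 9 members went in the same direction in all 3 pairs, against 35.4% of genes tested, and at 4 hr 5 did, against 37.6%. In TMM-scaled reads the groups did not overlap for 1 member at 1.5 hr (Bbc3), against 5.62% of genes, and for 3 at 4 hr (Bcl2, Mcl1 and Bbc3), against 7.75%. Summed T cell markers at 4 hr were 245 to 351 RPKM with IL-2 and 362 to 466 RPKM with IL-2-REH, and summed CD8 markers (2 of 2) 4.47 to 5.78 and 6.29 to 12.7 RPKM, and their part in these differences was not tested. The median log2 difference of the members was -0.04 at 1.5 hr and 0.23 at 4 hr, beside 0.02 and 0.01 over all genes. edgeR called 0 members at 1.5 hr, against 0.0133% of genes (2 members at an unadjusted p under 0.05), and 0 at 4 hr, against 0.0267% (1 member). With the block it called 0 against 0.0133% and 0 against 0.0666% of genes, with 2 and 3 members at an unadjusted p under 0.05. DESeq2 called 0 against 0.0999% and 0 against 0.386%, and limma called 0 at both times. The change of the IL-2-REH minus IL-2 difference from 1.5 to 4 hr was called for 0 members and 0% of genes by edgeR with and without the block and by DESeq2, with 0 members at an unadjusted p under 0.05. That change was -0.30 for Bcl2 (95% interval -1.25 to 0.65) and 0.12 for Bcl2l11 (-1.06 to 1.29).

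In CD8+ T cells, with 1 library per group, Bcl2 and Bcl2l1 were higher after 4 hr of IL-2 than without it and lower after 4 hr of IL-2-REH, and Bcl2l11 was higher with either cytokine. Bcl2 was at 30.4 RPKM without cytokine, at 67.5 RPKM with IL-2 and 20.4 RPKM with IL-2-REH at 1.5 hr, and at 98.5 and 13.4 RPKM at 4 hr. The IL-2 library held 7.36 times the Bcl2 level of the IL-2-REH library at 4 hr (95% exact interval 7.18 to 7.55) and 3.31 times at 1.5 hr (3.23 to 3.39). These intervals cover counting error only. Bcl2l1 was at 5.84 RPKM without cytokine, at 6.61 and 2.14 RPKM with IL-2 and IL-2-REH at 1.5 hr, and at 10.8 and 3.27 RPKM at 4 hr. IL-2 over IL-2-REH was 3.09-fold (2.72 to 3.51) at 1.5 hr and 3.30-fold (3.001 to 3.64) at 4 hr for Bcl2l1. Mcl1 was also higher with IL-2 than with IL-2-REH at both times, at 97.4 RPKM without cytokine, 158.3 and 100.2 RPKM at 1.5 hr and 118 and 96.8 RPKM at 4 hr. Its level with IL-2 was 1.58-fold (1.55 to 1.61) that with IL-2-REH at 1.5 hr and 1.21-fold (1.19 to 1.24) at 4 hr.

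Among the BH3-only transcripts of CD8+ T cells, Bcl2l11 and Bbc3 were higher with IL-2-REH than with IL-2 at both times, and Bid was lower. Bcl2l11 was at 10.5 RPKM without cytokine, at 27.8 RPKM with IL-2 and 36.5 RPKM with IL-2-REH at 1.5 hr, and at 16.5 and 25.1 RPKM at 4 hr. It was 1.31-fold (1.28 to 1.35) higher with IL-2-REH than with IL-2 at 1.5 hr and 1.52-fold (1.47 to 1.57) at 4 hr. Bbc3 was at 6.62 RPKM without cytokine, at 4.83 and 8.02 RPKM with IL-2 and IL-2-REH at 1.5 hr and at 3.003 and 5.87 RPKM at 4 hr, 1.66-fold (1.50 to 1.83) and 1.95-fold (1.73 to 2.21) higher with IL-2-REH. Pmaip1 was at 5.18 RPKM without cytokine, at 3.22 and 2.58 RPKM with IL-2 and IL-2-REH at 1.5 hr and at 2.68 and 2.84 RPKM at 4 hr. Bid was at 10.4 RPKM without cytokine, at 6.10 and 5.54 RPKM at 1.5 hr and at 9.66 and 5.56 RPKM at 4 hr. Its level with IL-2-REH was 0.908-fold (0.817 to 1.008) that with IL-2 at 1.5 hr and 0.575-fold (0.525 to 0.630) at 4 hr. At 1.5 hr the difference was thus within counting error. The effectors moved less. Bax lay between 22.8 and 36.1 RPKM and Bak1 between 12.8 and 19.4 RPKM over the 5 libraries.

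A log2 ratio of RPKM + 1 beyond 1 in either direction was reached by 2 of 9 members with IL-2 at 1.5 hr (Bcl2 and Bcl2l11), against 7.24% of 10021 genes, and by 1 with IL-2 at 4 hr (Bcl2), against 4.71%. It was reached by 2 with IL-2-REH at 1.5 hr (Bcl2l11 higher and Bcl2l1 lower), against 8.57%, and by 2 at 4 hr (Bcl2l11 higher and Bcl2 lower), against 6.11%. Between IL-2-REH and IL-2 it was reached by 2 members at each time, Bcl2 and Bcl2l1, both lower with IL-2-REH, against 0.868% of genes at 1.5 hr and 2.23% at 4 hr. Bcl2 at 4 hr, with -2.79, was the member with the largest ratio in the 6 comparisons. In Tregs, the same Bcl2 ratio was -0.33, -0.73 and -0.24 in pairs 1, 2 and 3, and the Treg libraries of a group differed with an SD of 0.45 (log2). Whether the ratio differs between the cell types was not tested.

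**Figure D3:**
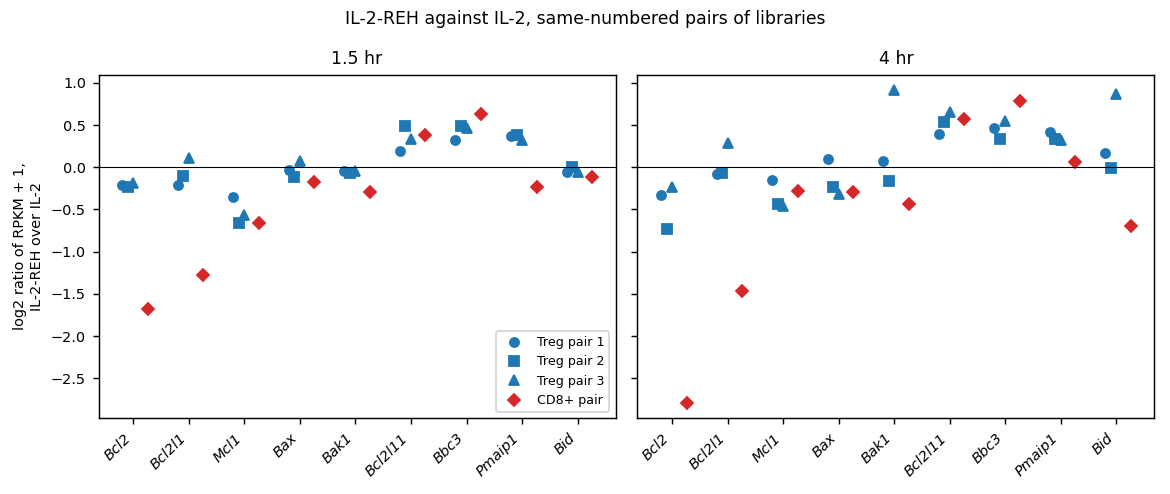
Log2 ratio of RPKM + 1 of IL-2-REH over IL-2 (y axis) for the 9 members (x axis) at 1.5 hr (left) and 4 hr (right), with blue symbols for the 3 same-numbered Treg pairs and red diamonds for the CD8+ pair. Bcl2 reached -2.79 in the CD8+ pair at 4 hr and -0.24 to -0.73 in the Treg pairs, and Bcl2l11 and Bbc3 lay above 0 in all pairs.

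The level in each CD8+ library was set beside those of the 3 Treg libraries of the same treatment. Bcl2l1 and Pmaip1 were under all 3 in all 5 treatments. A position on 1 side throughout was thus found for 2 of 9 members and for 22% of 10457 genes, so the members' share was that of the genes at large. Bcl2l1 stood at 5.84 RPKM in unstimulated CD8+ T cells against 13.8 to 17.2 RPKM in unstimulated Tregs, and at 3.27 against 20.5 to 47.4 RPKM with IL-2-REH at 4 hr. Pmaip1 stood at 5.18 against 13.0 to 44.0 RPKM without cytokine and at 2.58 against 27.5 to 48.2 RPKM with IL-2-REH at 1.5 hr. Mcl1, Bax and Bak1 were under the Treg range in 4 of 5 treatments each. Bcl2 had no fixed side. It was above the Treg range in both IL-2 groups, under it in both IL-2-REH groups and within it without cytokine. Bcl2l11 was within the Treg range in all 5 treatments.

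Transcripts for BCL2 and BIM were set against each other in each library, as a ratio of their RPKM, since BIM is bound by BCL2, BCL-XL and MCL-1. The ratio of Bcl2 to Bcl2l11 was 0.417, 2.34 and 2.79 in unstimulated Tregs, with replicate 1 far under the others. With IL-2 at 1.5 hr it was 1.28, 1.36 and 1.10, and with IL-2-REH 0.956, 0.808 and 0.753. At 4 hr it was 2.27, 2.39 and 2.65 with IL-2 and 1.34, 0.965 and 1.37 with IL-2-REH. The ratio was lower with IL-2-REH than with IL-2 in each pair. That direction follows from those of Bcl2 and Bcl2l11 given above, so it is not a further result. The ratios of the groups did not overlap at either time, while the groups of Bcl2l11 alone overlapped at both. How often ratios of other gene pairs do the same was not counted. In CD8+ T cells it was 2.90 without cytokine, 2.43 and 0.559 with IL-2 and IL-2-REH at 1.5 hr, and 5.97 and 0.533 at 4 hr. Both IL-2-REH values of the CD8+ T cells lay under all stimulated Treg values. The ratio of Bcl2l1 to Bcl2l11 was 0.646, 1.09 and 1.49 in unstimulated Tregs and 1.56, 2.58 and 2.76 with IL-2 at 4 hr, against 1.10, 1.67 and 2.08 with IL-2-REH. In the CD8+ libraries it ran from 0.0586 with IL-2-REH at 1.5 hr to 0.655 with IL-2 at 4 hr. The ratio of Mcl1 to Bcl2l11 was 9.18 to 10.1 with IL-2 and 4.07 to 6.86 with IL-2-REH in Tregs at 1.5 hr, and 5.69 and 2.74 in CD8+ T cells. No test was made of these ratios.

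**Figure D4:**
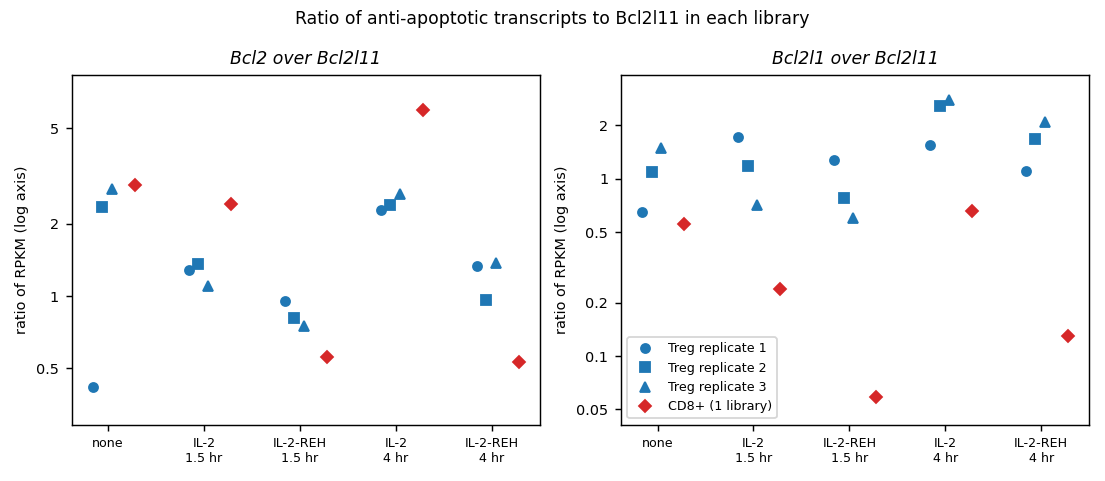
Ratio of the RPKM of Bcl2 (left) and Bcl2l1 (right) to that of Bcl2l11 in each library (y axes, logarithmic) by cytokine and time (x axes), with blue symbols for Treg replicates 1 to 3 and red diamonds for CD8+ libraries. In Tregs at 4 hr the Bcl2 ratio was 2.27 to 2.65 with IL-2 and 0.965 to 1.37 with IL-2-REH, and in CD8+ T cells 5.97 and 0.533.

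Other genes of the apoptosis pathway were read from fixed lists. Of the death receptor list, 2 of 8 genes rose after 1.5 hr of IL-2 in Tregs and none fell, where 0.853% of all genes were called. With the block and without unstimulated replicate 1, 5 of 8 rose (Fas, Fasl, Casp8, Ripk1 and Tnfrsf10b), where 26.9% of all genes were called. Fas, which encodes a death receptor, rose by 1.49 (log2, adjusted p = 0.013), and Ripk1, a kinase gene of death receptor signalling, rose by 0.98 (adjusted p = 0.016). Without unstimulated replicate 2 the adjusted p was 0.088 for Fas and 0.121 for Ripk1, and without unstimulated replicate 3 it was 0.087 for Ripk1. At 4 hr of IL-2, neither passed without the block, with adjusted p of 0.068 for Fas and 0.082 for Ripk1. With the block, Fas rose by 1.01 (adjusted p = 0.022), Ripk1 by 0.63 (adjusted p = 0.027) and Casp8, the caspase that death receptors activate and that cuts BID, by 0.83 (adjusted p = 0.037). That setting called 6.92% of all genes at 4 hr of IL-2. Fas ran from 10.1 to 50.7 RPKM over the Treg libraries and from 8.74 to 20.9 RPKM over the CD8+ libraries.

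Of 11 caspase and apoptosome genes, 1 rose at 4 hr of IL-2, where 2.27% of all genes were called. It was Diablo, whose product leaves the mitochondrion with cytochrome c and blocks caspase inhibitors, by 0.73 (adjusted p = 0.048). Its adjusted p was 0.164 and 0.261 without unstimulated replicates 2 and 3. Of 13 regulators of the family, 1 fell at 4 hr of IL-2, against the same 2.27% of genes. It was Bag3, a co-chaperone gene, which fell by 1.63 on the log2 scale (adjusted p = 0.045). Without unstimulated replicate 3, the adjusted p of Bag3 was 0.218. Ddit3, which encodes the stress factor CHOP, rose with IL-2-REH at 4 hr by 0.74 with the block alone (adjusted p = 0.041). That setting called 3.03% of all genes there. Of 15 other BCL2 family genes, 13 passed the filter on low counts and none was called without the block. With the block, Bcl2l14, a low transcript at 0.103 to 0.823 RPKM in Tregs, fell by 1.71 on the log2 scale at 4 hr of IL-2 (adjusted p = 0.018) and fell by 1.72 at 4 hr of IL-2-REH (adjusted p = 0.028). In those comparisons the blocked fit called 6.92% and 3.03% of all genes. Bcl2l2, which encodes the anti-apoptotic BCL-W, had a log2 fold change of 0.61 (adjusted p = 0.186) at 4 hr of IL-2, and Bcl2a1b one of -0.99 (adjusted p = 0.238). With the block and without unstimulated replicate 1, 6 of the 13 were called at 1.5 hr of IL-2, where 26.9% of all genes were called. Of these, 4 were higher (Bcl2a1a, Bcl2a1b, Bcl2a1d and Bnip3l) and 2 lower (Bcl2l12 and Bcl2l14). At 1.5 hr of IL-2-REH 7 were called, 6 higher and 1 lower, where 25.4% of all genes were called. They were Bcl2a1a, Bcl2a1b, Bcl2a1d, Bcl2l12, Bcl2l13, Bmf and Bnip3l. The Bcl2a1 genes are near-identical copies, so their values are uncertain.

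Of 5 inhibitor of apoptosis genes, none was called. The 3 with the lowest unadjusted p at 4 hr of IL-2 were Birc2 at -0.49, Birc5 at 0.56 and Birc3 at 0.26 (log2), with adjusted p of 0.32, 0.44 and 0.64. Without unstimulated replicate 1, Birc3 rose at 1.5 hr by 0.89 with IL-2 (adjusted p = 0.035) and by 1.05 with IL-2-REH (adjusted p = 0.017). Of all genes, 12.9% and 12.1% were called in those comparisons. Of 6 genes of mitochondrial channels and dynamics, none was called. Vdac1, Dnm1l and Mff had log2 fold changes of -0.21, -0.28 and -0.24 at 4 hr of IL-2, with adjusted p of 0.48, 0.58 and 0.71. None of the genes on these 6 lists was called between the cytokines at either time, with or without the block.

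Over the 15 Treg libraries, which share 5 treatments and 3 replicate numbers, the genes most like each member in TMM-scaled log2 CPM were named as a description. The pattern of Bcl2l11 was nearest to those of Ipmk, Zmym1 and Rras2 (Pearson r of 0.96, 0.95 and 0.95). That of Pmaip1 was nearest to Il10, Gem and Rgcc (0.97, 0.96 and 0.95), and that of Bax to Dctn2, Mvb12a and Atp6v1g1 (0.97, 0.95 and 0.95). Bid was nearest to Krcc1, Mavs and Tcaim (0.96 each), and Bcl2l1 to Zdhhc18, Il5 and Ip6k1 (0.89, 0.88 and 0.88). Mcl1 was nearest to Vprbp, Stambpl1 and Amica1 (0.90, 0.89 and 0.89), and Bcl2 to Stambpl1, Znrf1 and Disp1 (0.85 each), so Stambpl1 stood near both. Bbc3 was nearest to Mmp15 (0.86), and Bak1 to Srd5a1, Csnk2b and Sap130 (0.83, 0.81 and 0.81). Among the members themselves, Bcl2 and Mcl1 had the highest r, 0.74, followed by Bcl2l11 and Pmaip1 at 0.68. Bax and Pmaip1 had the lowest, -0.75, and Bcl2l11 and Bid had -0.68.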

How the data were processed

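RNA of 15 Treg and 5 CD8+ libraries was sequenced as single-end reads. Per the labels and the study's methods, the authors mapped reads to mm10 with TopHat2 2.1.1 and Bowtie2 2.2.6 and deposited raw read counts for 31682 RefSeq transcripts, made from exon reads with a unique position. The authors deposited the RPKM beside them, that is, reads per kilobase of exon scaled to the reads each library mapped. The submitters' processing notes also name SAMtools 0.1.8, bedtools 2.25.0 and edgeR. Strand use is not given in the sources used here.

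Counts of the most-read transcript per symbol were tested with edgeR 4.0.16 in R 4.3.3 (TMM, filterByExpr, glmQLFit, glmQLFTest, 1 mean per group over 15 Treg libraries), which left 15009 genes, all 9 members among them. Calls were made at a Benjamini-Hochberg adjusted p under 0.05. TMM factors change fitted folds relative to ratios of RPKM. CD8+ ratios used RPKM + 1 where the mean over CD8+ libraries reached 1 RPKM, with exact binomial (Clopper-Pearson) 95% intervals.

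Replicate numbers in the labels gave the pairing. Deviations from group means correlated between same-numbered libraries (mean r 0.54, lowest 0.12), so the blocked value is printed where it changes a call. Alternatives were DESeq2 1.42.0, limma 3.58.1 on log2(RPKM + 1 or 0.1), RLE size factors, other filters, the longest transcript and leaving out libraries. The fit was tried on simulated counts for IL-2 at 4 hr against unstimulated Tregs. Those counts had no effect shared by same-numbered libraries, so they cannot show how the fit handles the pairing. The members, lists and tests were chosen with earlier results of these data known. All 9 members are named, and of each list all genes called, or else the 3 with the lowest p at 4 hr of IL-2. Coordinates and promoters are of GRCm38. For Bbc3 only the nearest gene is named, and a further one is not reported here.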

Additional observations from a re-analysis of the deposited data

Results flagged for a closer look

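In 5 places the CD8+ pair of libraries went opposite to all 3 same-numbered Treg pairs under the same contrast, on the log2(RPKM + 1) scale. The share of all genes that did so was not counted, so the number says nothing particular to the members. The difference between the cell types was not tested, since CD8+ T cells had 1 library per group. Bcl2l1 with IL-2-REH against unstimulated cells was -1.12 in CD8+ T cells at 1.5 hr and 0.73, 0.86 and 0.51 in the Treg pairs. At 4 hr it was -0.68 in CD8+ T cells and 0.24, 1.45 and 1.28 in the Treg pairs. Bax with IL-2-REH at 4 hr against unstimulated cells was -0.11 in CD8+ T cells and 0.68, 0.24 and 0.96 in the Treg pairs. Bbc3 in the same contrast was -0.15 in CD8+ T cells and 0.15, 0.24 and 0.11 in the Treg pairs. Pmaip1 with IL-2-REH against IL-2 at 1.5 hr was -0.24 in CD8+ T cells and 0.37, 0.38 and 0.32 in the Treg pairs. The CD8+ ratios of Bax, Bbc3 and Pmaip1 were smaller than the SD between Treg libraries of a group. That SD was 0.36, 0.16 and 0.53 (log2) for these genes.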

How the results depend on the processing

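The number of members called depended on unstimulated Treg replicate 1 and on the replicate block. From 0, it became 1 with the replicate block and 2 with DESeq2 for IL-2 at 1.5 hr, and 2 with either for IL-2 at 4 hr. A minimum mean of 5 RPKM gave 1 for IL-2 at 4 hr, where 269 of 7089 genes were called. DESeq2 gave 1 for IL-2-REH at 4 hr and 1 for IL-2 at 4 hr against 1.5 hr. Without unstimulated replicate 1 the counts were 2 and 1 for IL-2 and 1 and 1 for IL-2-REH at 1.5 and 4 hr. With the block as well, a setting chosen after seeing the data, they were 4, 3, 3 and 2. Leaving out replicate 1, 2 or 3 of each Treg group gave 0 to 4 for IL-2 at 1.5 hr, 0 to 2 at 4 hr, 0 to 3 and 0 to 1 for IL-2-REH, and 0 to 1 for IL-2 at 4 hr against 1.5 hr, each highest without replicate 1. Of 14477 genes tested without replicate 1, 2509 and 1937 were called for IL-2 at 1.5 and 4 hr. For IL-2-REH 2269 and 1545 were called, and for IL-2 at 4 hr against 1.5 hr 625. The block changed no other call of a member. In CD8+ T cells a log2 ratio beyond 2 was reached by 0 members, except by 1 for IL-2-REH against IL-2 at 4 hr, where 29 of 10021 genes reached it. A pseudocount of 0.1 gave 2 for IL-2 at 4 hr (759 of 10021 genes), and centring on the median gave 1 for IL-2-REH at 1.5 hr (796 of 10021 genes). Of CD8+ levels under all Treg libraries, 3 instead of 2 members were found with TMM-scaled reads or without replicate 1 (Mcl1 added) and without replicate 3 (Bax added). Genes on 1 side throughout were then 2814 of 11083, 2812 of 10457 and 3468 of 10457. The cause of these changes was not tested. The lowest count of a member was 231 reads, for Bid, and the part of depth was not tested. Treg groups had 3 libraries and CD8+ groups 1.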
